A study of Rattus norvegicus with 8 samples.

Results

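Fc receptors and the chain they signal through were followed in the basolateral amygdala of rats 8 days after status epilepticus, an unremitting seizure after which epilepsy develops. The family was taken as 7 genes: Fcgr1a, Fcgr2a, Fcgr2b, Fcgr3a, Fcer1g, Fcrl2 and Fcgrt. A member was read by the probe sets of the Affymetrix rat array that are annotated to that gene symbol alone, which gave 6 of the 31042 probe sets, with a single probe set for each of 6 genes of 14217 named in all. The probe sets are 1393038_at (Fcgr1a), 1373523_at (Fcgr3a), 1373575_at (Fcer1g), 1371079_at (Fcgr2b), 1395126_at (Fcrl2) and 1387885_at (Fcgrt). The 2 probe sets of Fcgr2a carry a second symbol and were not read, so Fcgr2a was not analysed here. The family was chosen by its log2 signals in epileptogenic against control arrays of this same data set, so its values in that comparison are given as a description with no test.

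The study measured RNA in 4 groups of 4 rats. Epileptogenic paired and epileptogenic unpaired rats had status epilepticus induced by stimulation of the amygdala and had no spontaneous seizures during the study, while control paired and control unpaired rats were operated on and not stimulated. All rats, controls included, were habituated to the conditioning apparatus in 5 sessions and on day 8 went through 2 trials with a footshock of 1.5 mA for 1 s and a tone of 75 dB for 20 s. In paired training the shock fell at the end of the tone, and in unpaired training the shock preceded it. Tissue was taken 3 h later. All 4 groups were shocked, so no array shows an untrained amygdala. The lateral and basal nuclei on the side of the electrode were cut out by laser, and RNA of each rat (30 ng) was amplified in 2 rounds. Each array held the pooled RNA of 2 rats, and each group had 2 arrays, A and B, which the labels call biological replicates. The strain and age of the rats are not given in the sources used here. In such bulk tissue, more cells of a type and more RNA per cell cannot be told apart.

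Fc receptors are surface proteins that bind the constant part of antibodies and tell a phagocyte what to do with an antibody-coated target. The activating receptors, such as those encoded by Fcgr1a and Fcgr3a, have no signalling motif of their own and depend on the common gamma chain, encoded by Fcer1g, whose tyrosine-based activation motif (ITAM) recruits the kinase Syk and starts uptake. The receptor encoded by Fcgr2b carries an inhibitory motif (ITIM) instead and recruits the lipid phosphatase SHIP1, the product of Inpp5d, which dampens the same signal. In brain the classical receptors are mainly carried by microglia and by macrophages at the borders. Fcgrt encodes the neonatal Fc receptor, which stands apart: it resembles an MHC class I molecule, pairs with beta-2-microglobulin, and returns antibody and albumin from endosomes to the cell surface.

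Of the 6 measured members, 2 have a promoter in the RefSeq table (build GRCr8), Fcgr3a and Fcgrt. They are shown as the regulatory sequence on hand for an activating receptor and for the neonatal receptor. Each sequence runs from 250 bases before to 50 bases after the annotated start, 5′ to 3′ on the strand of the gene. Capitals mark GAGGAA on either strand (TTCCTC on the other), the core of sites of PU.1, the transcription factor of myeloid cells.
Fcgr3a, chr13:85782386-85782685, plus strand: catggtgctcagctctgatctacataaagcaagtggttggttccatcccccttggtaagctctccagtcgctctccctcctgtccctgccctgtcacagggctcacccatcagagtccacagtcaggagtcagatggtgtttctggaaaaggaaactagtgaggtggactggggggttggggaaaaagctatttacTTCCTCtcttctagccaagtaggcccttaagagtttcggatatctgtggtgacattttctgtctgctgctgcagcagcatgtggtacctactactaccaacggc
Fcgrt, chr1:104719977-104720276, minus strand: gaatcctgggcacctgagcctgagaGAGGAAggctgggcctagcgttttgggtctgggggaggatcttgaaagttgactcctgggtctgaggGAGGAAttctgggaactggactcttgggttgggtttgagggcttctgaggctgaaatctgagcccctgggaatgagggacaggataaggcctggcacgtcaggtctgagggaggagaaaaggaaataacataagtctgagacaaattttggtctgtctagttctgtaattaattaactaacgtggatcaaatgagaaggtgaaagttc
The 6 bases occurred once in the Fcgr3a window, on the reverse strand at position -54, and at 2 places in the Fcgrt window, both on the forward strand at positions -225 and -158. Of 33469 promoters of this length, 27.6% held the 6 bases on at least 1 strand. The longer form GAGGAAGT, which contains the 6 bases, was held by 2.42% of promoters, by the Fcgr3a window and not by the Fcgrt window. A match describes the letters only, since binding was not measured.

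In the epileptogenic amygdala the signals of 5 of the 6 measured members lay above those of every control array, and Fcgrt was the exception. Fcrl2 and Fcgr2b had the largest differences, 11.9-fold and 10.3-fold, followed by Fcer1g with 5.03-fold, Fcgr3a with 3.54-fold and Fcgr1a with 3.51-fold, while Fcgrt was 1.85-fold higher on average with overlapping groups. Over the 18625 probe sets bright enough to be tested, 7.29% had all 4 epileptogenic above all 4 control arrays and 7.77% the reverse. Nothing is read from the members' count against this share, because the choice of members used this contrast. The median log2 difference was 2.08 over the 6 members and -0.11 over all tested probe sets. All 6 members passed the filter on dim probe sets (a mean log2 signal above 4.35 over the 8 arrays), and all 6 also had a control mean above that level. In the sentences that follow, values are log2 signals, array A is given before array B, and differences are those of group means with the standard error (SE) of a model fitted to all tested probe sets.

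**Figure D1:**
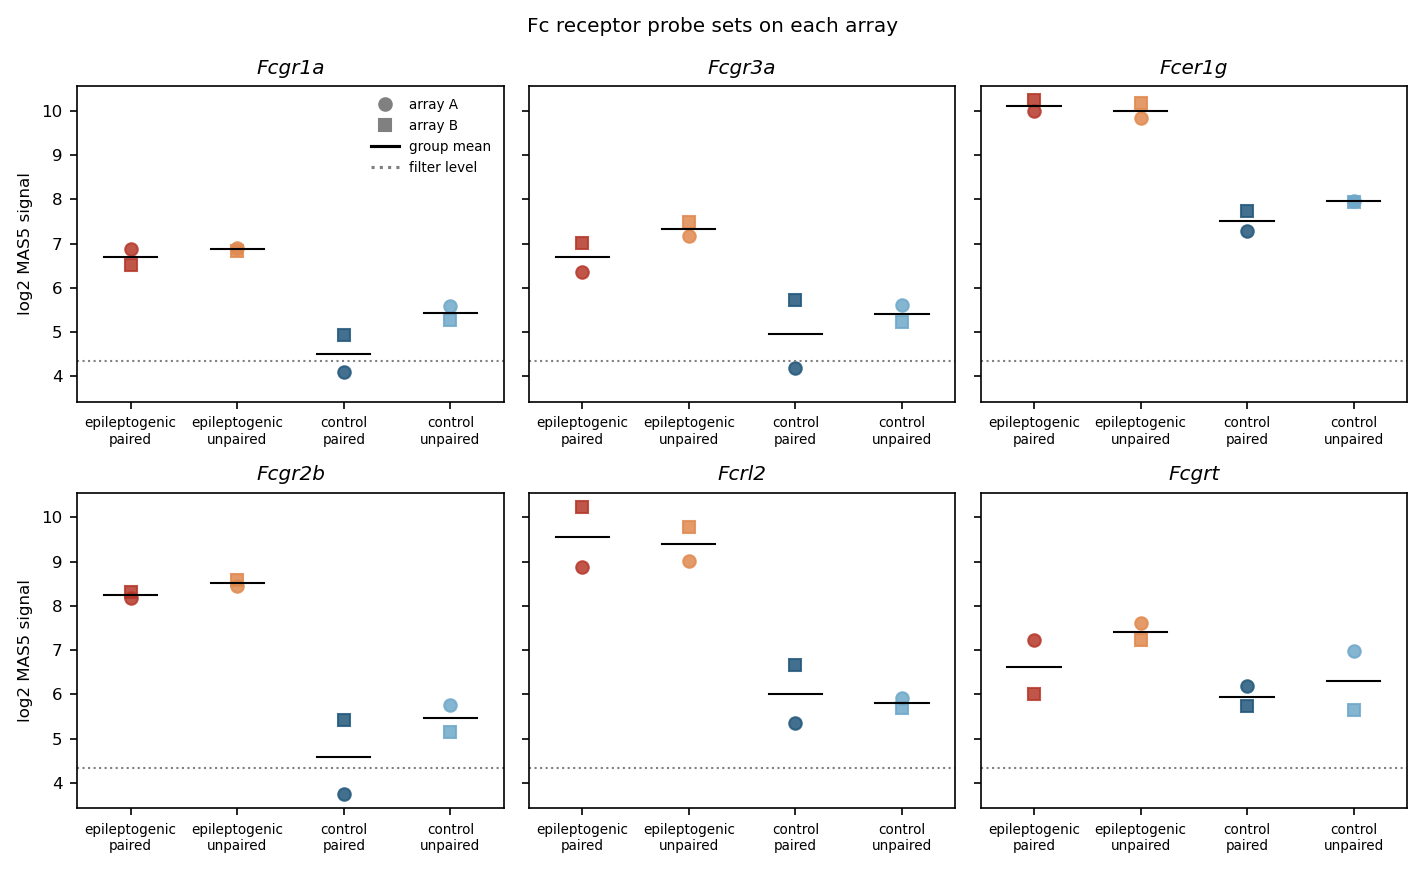
Log2 MAS5 signal (vertical axis) of the 6 measured members in the 4 groups (horizontal axis), with array A as circles, array B as squares, the group mean as a bar and the filter level of 4.35 as a dotted line. In all panels but that of Fcgrt the 4 epileptogenic arrays lie above the 4 control arrays, and array A of the control paired group is the lowest point for Fcgr1a, Fcgr3a, Fcer1g, Fcgr2b and Fcrl2.

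Among the activating receptors, Fcgr1a, which encodes the high-affinity receptor for IgG, read 6.89 and 6.51 in epileptogenic paired and 6.90 and 6.83 in epileptogenic unpaired arrays, against 4.09 and 4.94 in control paired and 5.59 and 5.28 in control unpaired arrays. The epileptogenic arrays were tightly grouped, with a mean of 6.79 ± 0.18 (SD, n = 4), and the control arrays were more spread, with a mean of 4.97 ± 0.65 (SD, n = 4). The lowest epileptogenic array stood 0.93 above the highest control array, and the log2 difference was 1.81 ± 0.28 (SE). In the order of the groups, epileptogenic unpaired was highest (mean 6.87), then epileptogenic paired (6.70), control unpaired (5.43) and control paired (4.51). The values of the 2 epileptogenic groups overlapped, and those of the 2 control groups did not.

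Fcgr3a, an activating low-affinity receptor for which RefSeq also lists the name Fcgr4, that of its mouse counterpart, read 6.37 and 7.02 in epileptogenic paired and 7.18 and 7.49 in epileptogenic unpaired arrays, against 4.20 and 5.72 in control paired and 5.61 and 5.22 in control unpaired arrays. Its means were 7.01 ± 0.47 in epileptogenic and 5.19 ± 0.69 in control arrays (SD, n = 4 each), a log2 difference of 1.83 ± 0.35 (SE). The 2 sides came closer than for any other separated member, with a gap of 0.65 between epileptogenic paired A and control paired B. The group means ran in the order epileptogenic unpaired (7.33), epileptogenic paired (6.69), control unpaired (5.42) and control paired (4.96), and the 2 control groups overlapped. RefSeq lists Fcgr3a also as an older name of rat Fcgr2a, and the probe set belongs by its gene ID to the gene now called Fcgr3a.

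Fcer1g, the gamma chain itself, was the steadiest of the members. It read 9.99 and 10.24 in epileptogenic paired and 9.84 and 10.18 in epileptogenic unpaired arrays, against 7.28 and 7.73 in control paired and 7.97 and 7.95 in control unpaired arrays. Its means were 10.06 ± 0.18 in epileptogenic and 7.73 ± 0.32 in control arrays (SD, n = 4 each), with a log2 difference of 2.33 ± 0.19 (SE) and a gap of 1.87 between the nearest arrays. The 2 epileptogenic groups had means of 10.12 (paired) and 10.01 (unpaired) and overlapped, and the 2 control groups had means of 7.51 (paired) and 7.96 (unpaired) and did not. The pooled SD within groups was 0.22 for Fcer1g, against 0.35 to 0.73 for the other measured members.

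The inhibitory receptor gene Fcgr2b read 8.19 and 8.32 in epileptogenic paired and 8.44 and 8.59 in epileptogenic unpaired arrays, against 3.75 and 5.42 in control paired and 5.77 and 5.15 in control unpaired arrays. The epileptogenic arrays lay close together, the control arrays were scattered, and control paired A fell under the filter level, as it also did for Fcgr1a and Fcgr3a. The means were 8.38 ± 0.17 in epileptogenic and 5.02 ± 0.89 in control arrays (SD, n = 4 each), and the log2 difference was 3.36 ± 0.35 (SE). With control paired A left out it was 2.94. The gap of 2.41 between the nearest arrays was the widest of the 6 members, and the order of the group means was epileptogenic unpaired (8.51), epileptogenic paired (8.25), control unpaired (5.46) and control paired (4.58).

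Fcrl2, an Fc receptor-like gene that RefSeq also lists as Fcrls, is known in mouse as a gene enriched in microglia. It read 8.87 and 10.24 in epileptogenic paired and 9.02 and 9.79 in epileptogenic unpaired arrays, against 5.35 and 6.66 in control paired and 5.92 and 5.69 in control unpaired arrays. The 2 sides were separated by 2.22, and the means of 9.48 ± 0.65 in epileptogenic and 5.90 ± 0.55 in control arrays (SD, n = 4 each) gave a log2 difference of 3.58 ± 0.38 (SE). By group mean, epileptogenic paired (9.55) and epileptogenic unpaired (9.40) were highest and overlapped, and control paired (6.00) and control unpaired (5.81) overlapped below them. Array B was the higher array in both epileptogenic groups and in the control paired group.

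Fcgrt, the neonatal receptor gene, was the member whose 2 sides were not separate. It read 7.24 and 6.01 in epileptogenic paired and 7.61 and 7.22 in epileptogenic unpaired arrays, against 6.18 and 5.73 in control paired and 6.98 and 5.64 in control unpaired arrays. The overlap came about because epileptogenic paired B lay below 2 control arrays, and array A exceeded array B in all 4 groups. The means were 7.02 ± 0.70 in epileptogenic and 6.13 ± 0.62 in control arrays (SD, n = 4 each), with a log2 difference of 0.89 ± 0.37 (SE). The group means ran in the order epileptogenic unpaired (7.42), epileptogenic paired (6.62), control unpaired (6.31) and control paired (5.95), and each group overlapped its neighbour in that order. Single arrays carried much of the difference, which became 0.58 when epileptogenic paired A was left out and 1.20 when the B array of that group was. Among control arrays it became 1.23 without unpaired A and 0.55 without unpaired B.

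The differences were present in both trainings and in both replicate letters. The epileptogenic minus control log2 difference (± SE) of Fcgr2b was 3.67 ± 0.50 with paired and 3.05 ± 0.50 with unpaired training. That of Fcrl2 was 3.55 ± 0.54 with paired and 3.60 ± 0.54 with unpaired training, and that of Fcer1g was 2.61 ± 0.27 with paired and 2.05 ± 0.27 with unpaired training. In both trainings these were the members with the largest differences. Fcgr1a differed by 2.19 ± 0.39 with paired and 1.44 ± 0.39 with unpaired training, Fcgr3a by 1.73 ± 0.50 with paired and 1.92 ± 0.50 with unpaired training. For Fcgrt the differences were 0.67 ± 0.53 with paired and 1.11 ± 0.53 with unpaired training. The 2 trainings use different arrays, but both sets of arrays entered the contrast that chose the members. For the 5 members with separate groups, a positive sign within each training and letter follows from that separation. Arrays of the same letter deviated from their group means together, and within each letter the members kept their sign. Among A arrays the differences ran between 0.85 (Fcgrt) and 3.55 (Fcgr2b), and among B arrays between 0.94 (Fcgrt) and 3.84 (Fcrl2).

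**Figure D2:**
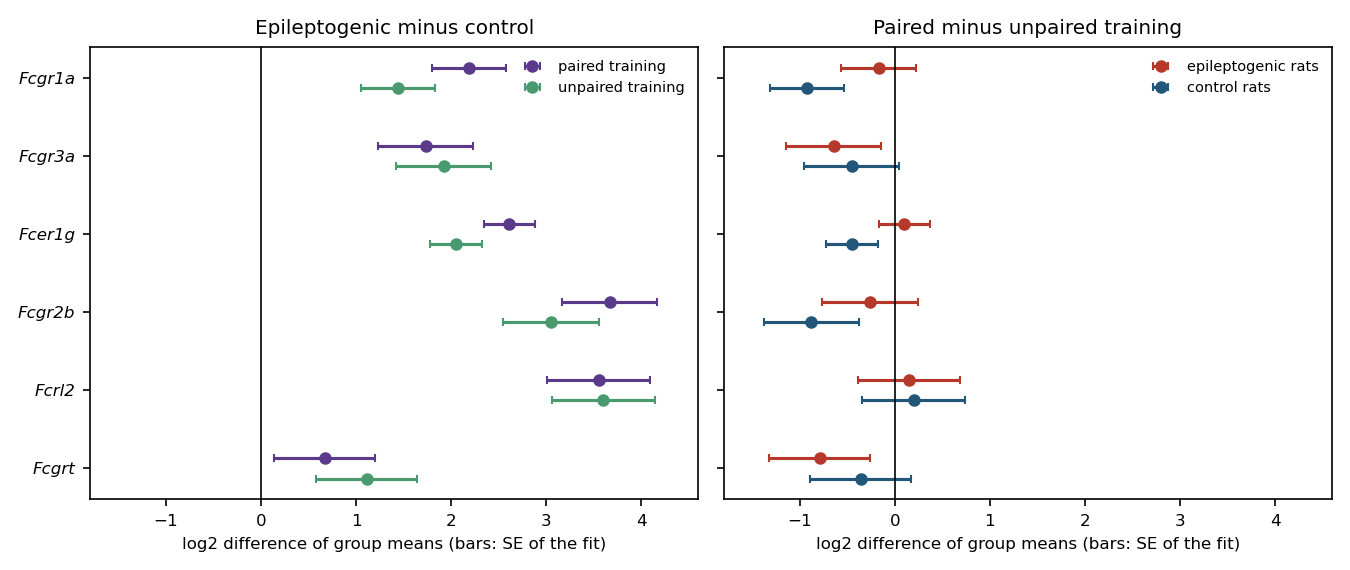
Log2 differences of group means (horizontal axis) with the SE of the fit as bars for the 6 measured members (vertical axis), epileptogenic minus control within each training on the left and paired minus unpaired training within each condition on the right. On the left all points lie above 0, from 0.67 for Fcgrt to 3.67 for Fcgr2b, and on the right they lie between -0.92 and 0.20.

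Paired against unpaired training asks whether coupling the tone to the shock altered the amygdala's transcripts, a contrast that the choice of members did not use. None of the 6 members passed in limma (0% of all 18625 tested probe sets passed in either direction, and 1.15% had an unadjusted p under 0.05). That share is below the 0.05 level itself, and this fit counts any shared difference between letters A and B as spread within groups. With 2 arrays per group, the lack of a call does not show that levels were equal. Fcgr1a had a paired minus unpaired log2 difference of -0.54 ± 0.28 over all rats (SE; limma unadjusted p = 0.0802). Fcgr2b stood at -0.57 ± 0.35 (limma unadjusted p = 0.14) and Fcgrt at -0.57 ± 0.37 (limma unadjusted p = 0.155). Fcgr3a stood at -0.55 ± 0.35, Fcer1g at -0.18 ± 0.19 and Fcrl2 at 0.17 ± 0.38. No difference reached 2 SEs without the block, 5 of the 6 were negative, and the adjusted p of each member was 1. With the replicate letter as a block the 6 adjusted p were 0.998 in limma, and Fcgrt, at -0.57 ± 0.22, had an unadjusted p of 0.0255. In that block fit 730 of the 18625 tested probe sets had an unadjusted p under 0.05.

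Within control rats Fcgr1a was the only member with an unadjusted p under 0.05, at a paired minus unpaired difference of -0.92 ± 0.39 (SE; limma, unadjusted p = 0.0424, adjusted p = 1), and 1.68% of all tested probe sets reached that unadjusted level. With the block the unadjusted limma p within control rats was 0.0298 for Fcgr1a and 0.0339 for Fcer1g, at -0.45 ± 0.18, with adjusted p of 0.967 for both. In that block fit 919 of the 18625 tested probe sets reached the unadjusted level within control rats. Without the block Fcgr2b stood at -0.88 ± 0.50 within control rats. Array A of the paired group was the lowest control array for Fcgr1a and Fcgr2b, and also for Fcgr3a, Fcer1g and Fcrl2. Within epileptogenic rats the paired minus unpaired differences ran from -0.79 ± 0.53 for Fcgrt to 0.15 ± 0.54 for Fcrl2 (SE), and 0 of 6 passed in limma or had an unadjusted p under 0.05. With the block the unadjusted limma p of Fcgrt within epileptogenic rats was 0.0288 (adjusted p = 0.972), and 933 of the 18625 tested probe sets were under 0.05. The interaction, which tests whether the effect of paired training differed between epileptogenic and control rats, was 0.75 ± 0.55 for Fcgr1a, 0.62 ± 0.70 for Fcgr2b, 0.55 ± 0.38 for Fcer1g, -0.05 ± 0.76 for Fcrl2, -0.19 ± 0.71 for Fcgr3a and -0.43 ± 0.74 for Fcgrt (log2, SE). In limma 0 of 6 passed, with unadjusted p between 0.181 and 0.952, and 0% of all tested probe sets passed. With the block the unadjusted p of Fcer1g was 0.0595 in limma, at an interaction of 0.55 ± 0.26 (adjusted p = 0.868).

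The genes around the receptors were read next, from lists of Fc receptor partners, signalling proteins and uptake machinery that hold no member. Here epileptogenic and control rats were compared by test, on lists drawn up with earlier results of these data known. The counts therefore describe these lists and are no independent evidence about the pathway. Of 82 measured genes 60 were bright enough to test, and in limma 16 rose and 0 fell, against 2.81% of all tested probe sets that rose and 0.827% that fell. Their median log2 difference was 0.47, against -0.11 over all tested probe sets. Of the 60, 5 lay under the filter level in their control arrays on average and entered only through their epileptogenic arrays, and 1 of the 16 that rose is among these. With the replicate letter as a block 27 rose, 4 of them such genes, and 2 fell, against 7.58% of all tested probe sets that rose and 8.65% that fell in the same fit. The count changed with single arrays left out: it was 6 without epileptogenic paired A, 8 without paired B, 10 without unpaired A and 5 without unpaired B. For the control arrays it was 9 without paired A, 7 without paired B, 15 without unpaired A and 8 without unpaired B. Over all tested probe sets the number that rose fell likewise, to between 199 and 367 with 1 array left out, against 523 with all arrays. With every one of these arrays left out in turn 3 genes kept the call, Vav2, Blnk and B2m. For Vav2 this holds for its brightest probe set, and 1 of its 2 further tested probe sets had the opposite sign.

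**Figure D3:**
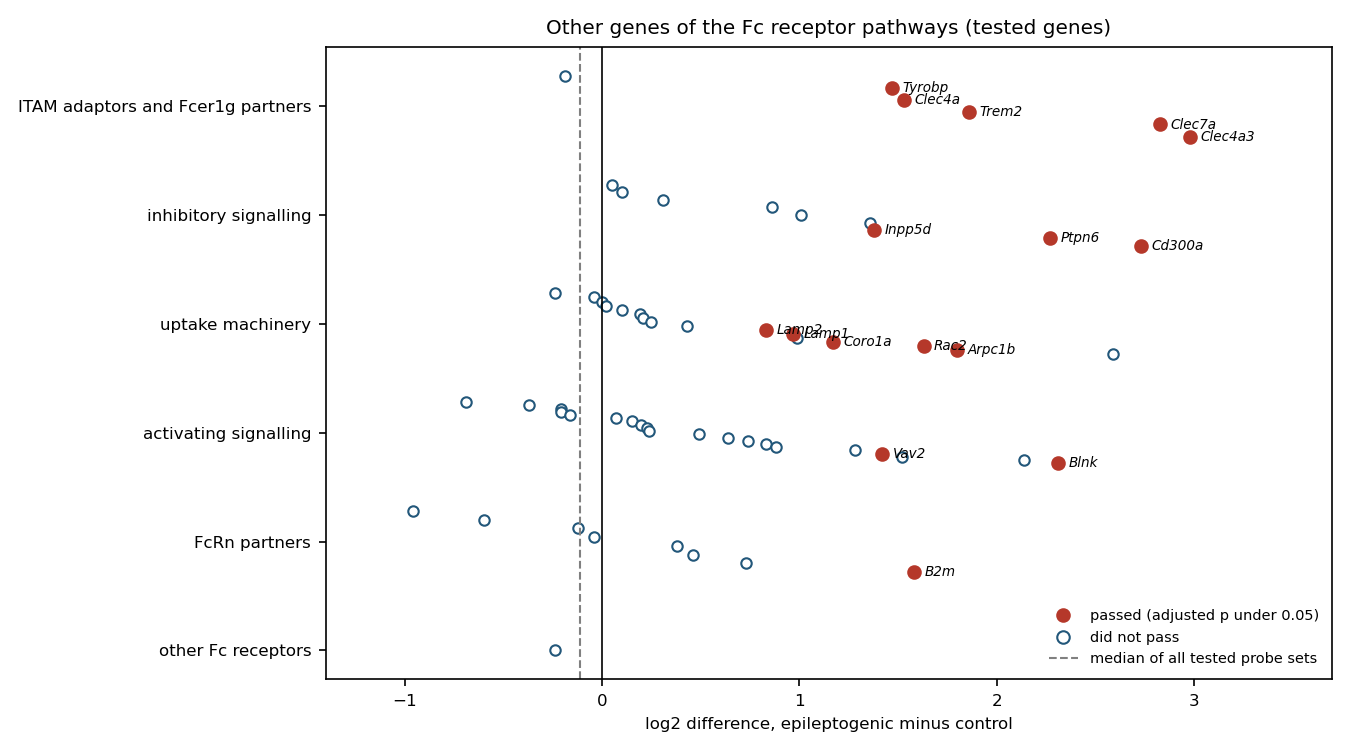
Log2 difference between epileptogenic and control arrays (horizontal axis) of each tested gene in the 6 lists around the Fc receptors (vertical axis), with filled red points for genes that passed in limma and open points for the others. The 16 filled points all lie to the right of 0, and the dashed line marks the median of all tested probe sets at -0.11.

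In the list named ITAM adaptors and gamma chain partners 5 of 6 tested genes rose and 0 fell in limma (5 rose with the block). Their median log2 difference was 1.70. The list is wider than its name, and pairing with the gamma chain was not measured. Tyrobp, which encodes DAP12, the sister adaptor of the gamma chain, averaged 6.34 ± 0.37 in epileptogenic and 4.87 ± 0.48 in control arrays (log2 signal, SD, n = 4 each) and rose by 1.47 ± 0.30 (SE; limma adjusted p = 0.0297). Trem2, a lipid-sensing receptor that signals through DAP12, rose by 1.86 ± 0.43 (limma adjusted p = 0.0472). Clec4a3, a C-type lectin gene, rose by 2.98 ± 0.49 (limma adjusted p = 0.0136), and Clec4a, another, by 1.53 ± 0.33 (limma adjusted p = 0.0373). The human counterpart of Clec4a carries an inhibitory motif, although the gene stands in this list. Clec7a, the receptor for beta-glucan, which has an ITAM-like motif of its own, rose by 2.83 ± 0.49 (limma adjusted p = 0.0172). Cd247, the zeta chain of T and NK cells, was at -0.19 ± 0.53 and did not pass.

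Of the inhibitory signalling genes 3 of 9 tested rose and 0 fell in limma (6 rose with the block), with a median log2 difference of 1.01. Inpp5d, which encodes SHIP1, the phosphatase that works with the Fcgr2b receptor, averaged 7.09 ± 0.27 in epileptogenic and 5.72 ± 0.33 in control arrays (log2 signal, SD, n = 4 each) and rose by 1.38 ± 0.24 (SE; limma adjusted p = 0.0174). Ptpn6, the gene of the tyrosine phosphatase SHP-1, rose by 2.27 ± 0.38 (limma adjusted p = 0.0157) and Cd300a, an inhibitory receptor of myeloid cells, by 2.73 ± 0.53 (limma adjusted p = 0.0252). The control mean of Cd300a, 3.41, lay under the filter level, so it could enter the test only through its epileptogenic arrays.

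Of the activating signalling genes 2 of 20 tested rose and 0 fell in limma, and 7 rose and 1 fell with the block. Blnk, an adaptor that Syk phosphorylates, rose by 2.31 ± 0.29 (log2, SE; limma adjusted p = 0.00419), and Vav2, an exchange factor, by 1.42 ± 0.22 (limma adjusted p = 0.0108), although 1 of the 2 further tested probe sets of Vav2 had the opposite sign. Syk itself averaged 6.56 ± 0.21 in epileptogenic and 5.82 ± 0.60 in control arrays (log2 signal, SD, n = 4 each), a difference of 0.74 ± 0.32 that did not pass (limma adjusted p = 0.258). With single arrays left out the Syk difference ran from 0.40, without control unpaired B, to 1.08. The median of this list was 0.36.

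In the uptake machinery 5 of 16 tested genes rose and 0 fell in limma (8 with the block). Arpc1b, a subunit of the actin-branching Arp2/3 complex, rose by 1.80 ± 0.37 (log2, SE), the blood-cell GTPase gene Rac2 by 1.63 ± 0.30, and Coro1a, an actin regulator of leukocytes, by 1.17 ± 0.21. The lysosomal membrane genes Lamp1 and Lamp2 rose by 0.97 ± 0.15 and 0.83 ± 0.18. The limma adjusted p of these 5 lay between 0.0105 and 0.0373. The list's median was 0.34.

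Around the neonatal receptor, 1 of 8 tested genes rose in limma and 0 fell (1 rose and 1 fell with the block). The gene that fell with the block was Stx1a, at -0.96 ± 0.28 (SE of the fit without the block, where Stx1a did not pass). B2m, the light chain of the neonatal receptor and of MHC class I, averaged 11.37 ± 0.10 in epileptogenic and 9.80 ± 0.18 in control arrays (log2 signal, SD, n = 4 each) and rose by 1.58 ± 0.16 (SE; limma adjusted p = 0.00237), while the heavy chain gene Fcgrt stood at 0.89 ± 0.37. Alb, the gene of the receptor's other cargo, albumin, showed 0.73 ± 0.44 and did not pass (limma adjusted p = 0.414). In the training comparison and in the interaction, 0 of the 60 tested genes of all these lists passed in limma, and 0 and 1 of them had an unadjusted p under 0.05.

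Other Fc receptors were dim. Of 7 measured genes 6 had a mean under the filter level, among them Fcer1a and Ms4a2, the chains that join the gamma chain in the mast cell receptor for IgE, Fcer2, the low-affinity IgE receptor, Fcmr, the IgM receptor, and Pigr, which carries polymeric antibody across epithelia. Fcer1a averaged 1.46 ± 2.05 in epileptogenic and 2.09 ± 2.54 in control arrays (log2 signal, SD, n = 4 each). The 1 tested gene, Fcrla, which encodes an intracellular Fc receptor-like protein, averaged 5.82 ± 0.38 in epileptogenic and 6.07 ± 1.08 in control arrays and did not pass (limma adjusted p = 0.828).

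Markers of the cells that carry Fc receptors were read beside these results, from lists also drawn up with earlier results of these data known. Of 7 microglial markers, all tested, 5 rose in limma (6 with the block), with a median log2 difference of 1.68, and their summed signal ran from 3610 to 4620 in epileptogenic and from 1020 to 1500 in control arrays. Sall1, the brightest of the 7, weighed most in that linear sum, at a mean log2 signal of 10.92 in epileptogenic and 9.36 in control arrays. P2ry12, the purinergic receptor of resting microglia, rose by 1.75 ± 0.19 (SE) and Aif1 by 2.72 ± 0.41, although a further tested probe set for Aif1 pointed the other way, whereas Cx3cr1 stood at -0.40 ± 0.58. Set beside that median, the differences of Fcgr1a and Fcgr3a were larger by 0.13 and 0.15, that of Fcer1g by 0.65, those of Fcgr2b and Fcrl2 by 1.68 and 1.90, and that of Fcgrt smaller, at -0.79. These gaps are descriptions, and the part of microglial number in the members' values was not tested.

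Markers of other Fc receptor-bearing cells were dim on most arrays. All 6 measured genes of B cells and immunoglobulin and all 12 of NK and T cells had a mean under the filter level, as did 6 of 7 of blood monocytes and neutrophils and 7 of 8 of mast cells, and no marker had a signal of 0. The summed signal of the B cell list ran from 49.4 to 84.2 in epileptogenic and from 74.1 to 143 in control arrays, and that of the NK and T cell list from 76.6 to 140 in epileptogenic and from 121 to 206 in control arrays. The monocyte and neutrophil list ran from 119 to 265 in epileptogenic and from 81.4 to 200 in control arrays, and Plac8, its 1 tested gene, showed 1.33 ± 0.35 (log2, SE) and did not pass (limma adjusted p = 0.0732, 0.0145 with the block). The mast cell list ran from 76.0 to 117 in epileptogenic and from 39.9 to 169 in control arrays. Ms4a1, the gene of the B cell antigen CD20, averaged 2.37 ± 1.42 in epileptogenic and 2.59 ± 1.63 in control arrays (log2 signal, SD, n = 4 each).

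The endothelial list, whose cells carry the neonatal receptor at the blood-brain barrier, had 0 of 7 genes called in limma (2 with the block), a median log2 difference of 0.32, and summed signals of 1800 to 2420 in epileptogenic and 1420 to 1770 in control arrays. Neuronal markers summed to between 7230 and 13400 in epileptogenic and between 11100 and 17000 in control arrays, with 0 of 7 tested genes called in limma (2 lower with the block). In the astrocyte list 2 of 7 genes rose, Gfap and Aqp4, although 1 of the 2 further tested probe sets of Aqp4 had the opposite sign. Oligodendrocyte markers summed to between 6700 and 15400 in epileptogenic and between 5470 and 6740 in control arrays, with 0 of 6 tested genes called (2 higher with the block). The part of these cell types in the members' values was not tested.

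**Figure D4:**
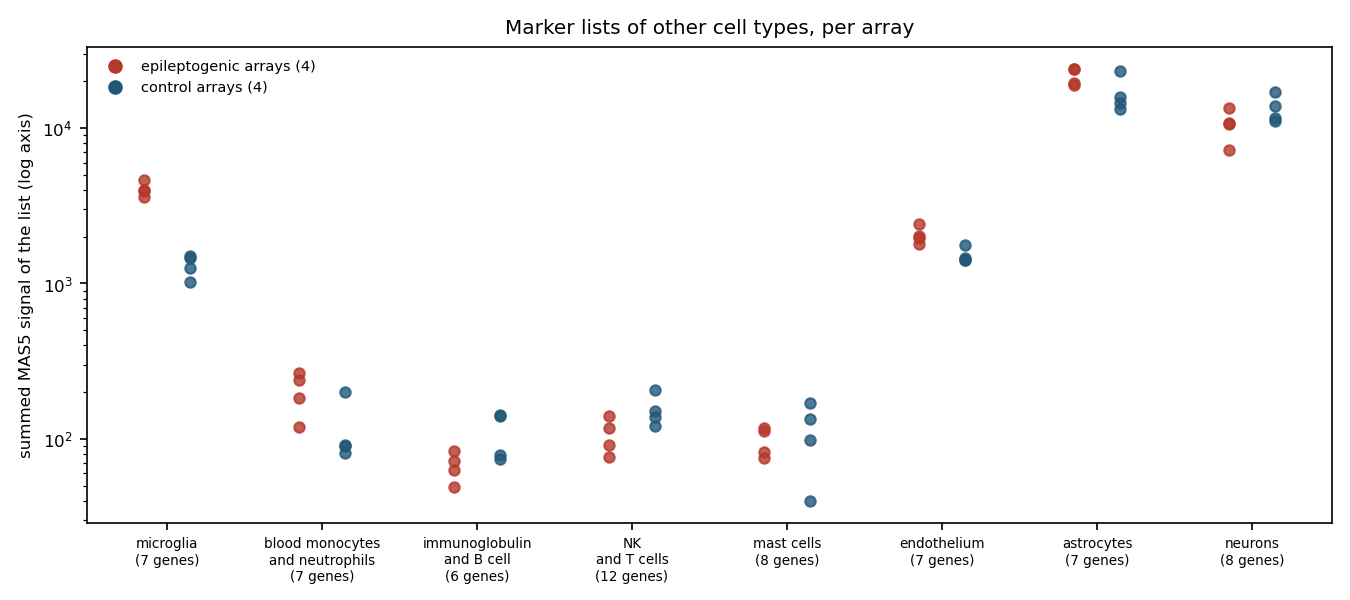
Summed MAS5 signal of each marker list (vertical log axis) in the 4 epileptogenic arrays (red, left) and the 4 control arrays (blue, right), by cell type (horizontal axis). The microglial sums, in which the brightest gene Sall1 weighs most, run from 3610 to 4620 in epileptogenic arrays against 1020 to 1500 in control arrays. The 4 epileptogenic arrays lie above the 4 control arrays for the microglial and endothelial lists, and overlap them for the lists of monocytes and neutrophils, NK and T cells, and mast cells.

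Some of the members lie near each other in the genome. In RefSeq's rat assembly GRCr8, Fcgr2b, Fcgr3a and Fcgr2a follow each other on chromosome 13, with Fcer1g further along the same stretch, whereas Fcgr1a and Fcrl2 lie on chromosome 2 and Fcgrt on chromosome 1. The stretch from Dusp12 to Dedd, which enclose these genes, holds 23 protein-coding genes, and 11 that are no members were tested. Of these 11, 1 passed in limma: Adamts4, a protease of the extracellular matrix that lies near Fcer1g, averaged 8.01 in epileptogenic and 6.73 in control arrays and rose by 1.28 on the log2 scale (adjusted p = 0.0145). Sdhc, a mitochondrial subunit gene between the receptors and Fcer1g, averaged 9.20 in epileptogenic and 9.21 in control arrays. The differences of all 10 that did not pass lay between -0.66 and 0.40. The members were chosen by this same contrast and the neighbours were not, so nothing is read from the members standing above them.

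**Figure D5:**
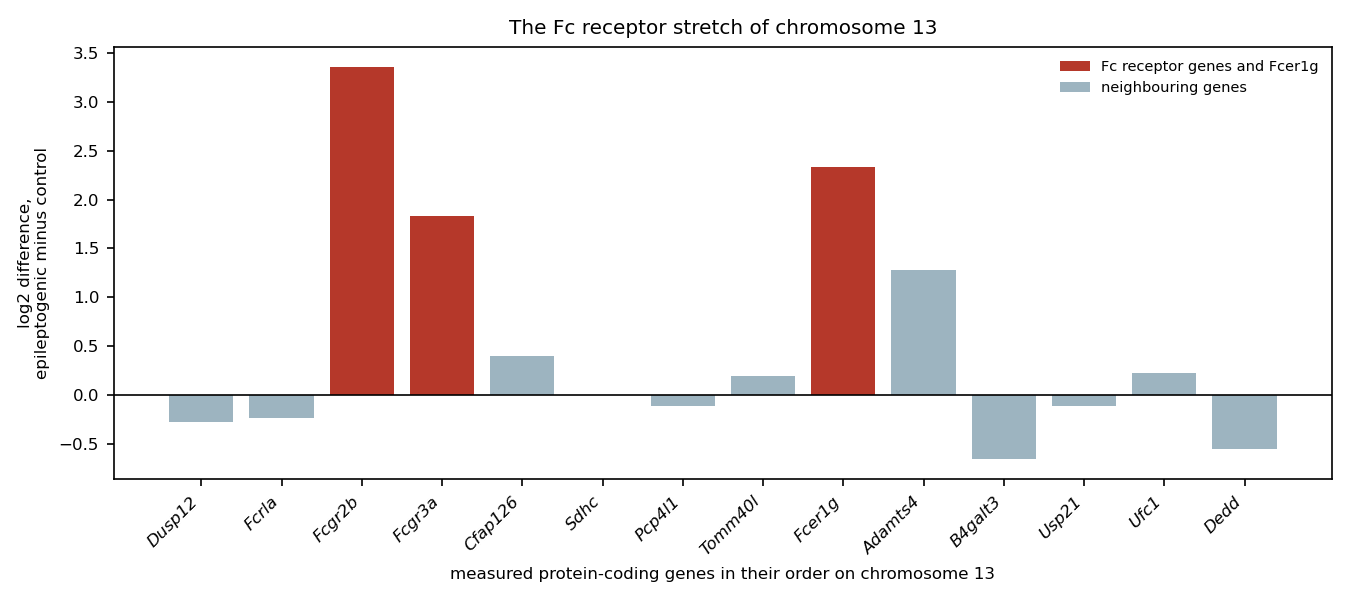
Log2 difference between epileptogenic and control arrays (vertical axis) of the measured protein-coding genes of the chromosome 13 stretch, in their order along the chromosome (horizontal axis), with members in red and neighbours in grey. The bars of Fcgr2b (3.36), Fcgr3a (1.83) and Fcer1g (2.33) stand among neighbours that lie between -0.66 and 0.40, apart from Adamts4 at 1.28. The members, unlike the neighbours, were chosen by this contrast.

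Likeness of pattern was measured as the root mean square difference of log2 signals over the 8 arrays, after each probe set was centred on its own mean, over 10358 other named genes. Nearest to Fcer1g were Adgre1, which encodes a surface receptor of macrophages, at 0.19, Mpeg1, the gene of a pore-forming protein of macrophages, at 0.19, Plek, a substrate of protein kinase C in blood cells, at 0.21, Rnaset2 at 0.23 and Rab32 at 0.24. Nearest to Fcgr2b were Gfap, the astrocyte filament gene, at 0.30, and the interferon-induced genes Rsad2 at 0.34 and Ifgga2l1 at 0.38. Nearest to Fcgrt were Bmp1, Id3 and Efemp2, each at 0.25. Among the members themselves Fcer1g and Fcgr1a were closest, at 0.39, and Fcrl2 and Fcgrt farthest apart, at 1.65. All distances share the same 8 arrays and include the contrast that chose the members: the 5 genes nearest to Fcer1g differed between epileptogenic and control arrays by 2.06 to 2.57, and the 3 nearest to Fcgr2b by 2.83 to 3.40 (log2).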

How the data were processed

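RNA of the laser-dissected amygdala was measured on 8 arrays. The deposited value is a probe set's signal intensity on a linear scale, which the authors made with MAS5, per the submitters' processing notes; its version and scaling target are not given in the sources used here. Array medians lay between 29.0 and 43.2 and Pearson correlations of log2 signals between 0.85 and 0.925. The number of arrays limits the precision, and detection calls were not used here. Gene symbols come from GEO's platform annotation: 20826 probe sets have a single symbol, 436 several and 9780 none, and 0 symbols changed through RefSeq.

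From the deposited intensities log2 values were computed without further normalization, and 57 control probe sets were left out. Probe sets with a mean above the 40th percentile (4.35) were tested in limma 3.58.1 (R 4.3.3) with 4 group means and an intensity trend, two-sided, with Benjamini-Hochberg adjustment over 18625 probe sets at 0.05. A list gene was read by its brightest probe set. Plots used Python 3.11.15 and matplotlib 3.10.9.

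The members, lists and tests were chosen with earlier results of these data known. Named were all members and at most 5 called genes per list with the largest change, or values of the 2 smallest p where none was called; Tyrobp, Syk, Inpp5d, Ptpn6 and B2m always. Adamts4, Sdhc, Stx1a, Plac8, Alb, Cd247, Cx3cr1, Gfap, Aqp4, Aif1, P2ry12, Sall1, Ms4a1 and the dim Fc receptors were named after their values were seen. What letters A and B stand for is not given in the sources used here, and whether they pair arrays across groups is not known. Deviations from group means correlated between like letters in all 6 pairs of groups. The correlations were 0.321 to 0.407 over the tested probe sets and 0.128 to 0.193 over all. Fits with the letter as a replicate block are therefore given where they move a count. Probe sequences were not analysed here, so signal shared between the similar genes Fcgr2b, Fcgr3a and Fcgr2a was not tested.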

Additional observations from a re-analysis of the deposited data

How the results depend on the processing

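The count of 5 members with separate groups was 5 or 6 under the 14 alternatives that apply to it. These were other normalizations, an offset, a stricter filter, single arrays left out and 1 letter alone. The count was 6 without epileptogenic paired B and within each letter. Leaving arrays out cannot undo a separation, so those alternatives could only keep or raise the count. The offset keeps the order of the arrays and the stricter filter changes no signal, so neither could alter which groups overlap. Of the alternatives, only the other normalizations could have undone a separation. For the 5 separated members, leaving arrays out and the offset also could not change the sign of a difference. All 78 recomputed differences between epileptogenic and control arrays stayed positive for the 6 members, and 77 moved by less than the pooled SD within groups; the exception was Fcgr1a, at 1.39 with an offset of 16 before the logarithm. The range of Fcgr2b was 2.81 to 3.78 and that of Fcrl2 3.23 to 3.92. For the other Fc pathway genes the number that rose was 16, 10 without the intensity trend, 27 with the replicate block, and 5 to 15 with single arrays left out; 12 to 18 rose in the 7 remaining alternatives. The number that fell was 0, and 2 with the replicate block. The cause of these moves was not tested. In the training comparisons and the interaction 0 members passed in limma under all 16 alternatives each, with the smallest adjusted p of any member between 0.856 and 1; the replicate block changed no call there. Fits to the arrays of 1 letter were not run for the tested counts. Signals near the filter level of 4.35, such as those of Fcgr1a, Fcgr2b and Fcgr3a in control paired A, limit how well the size of a difference is known.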
